A study of Mus musculus with 11 samples.

Results

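Fatty acid oxidation and its nuclear receptor PPAR-alpha were followed through 38 genes, chosen by name, of the 55414 genes in the count table. All 38 matched 1 row each, and all 38 passed the filter on low counts that left 17038 genes for testing. They cover regulators (5 genes), uptake and activation of fatty acids (2), the carnitine shuttle (4), mitochondrial beta-oxidation (10), electron transfer (3), peroxisomal oxidation (8), acyl-CoA thioesterases (5) and ketone body metabolism (1). RNA came from whole livers of 11 male Clec4f-DTR mice, in which the promoter of Clec4f, a gene of the liver's resident macrophages (Kupffer cells), drives a receptor for diphtheria toxin (DT). The chow group (n = 3) ate normal chow. The saline group (n = 4) ate western diet with alcohol and received serial saline injections. The DT group (n = 4) ate the same diet and received serial DT injections. Diets began at 8 weeks of age and lasted 16 weeks. All mice, chow included, carried the transgene, and the chow labels name no injection, so saline against chow compares diet together with injection.

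PPAR-alpha is a receptor of liver cells that senses fatty acids. Paired with RXR, it binds response elements and raises transcription of genes for taking up, activating and burning fat. Long chains enter mitochondria through the carnitine shuttle and are shortened there by repeated dehydrogenation, hydration and thiolysis, with electrons leaving through the electron transfer flavoprotein. Very long and branched chains are shortened first in peroxisomes, and the liver turns surplus acetyl-CoA into ketone bodies.

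Promoters of 33 of the 38 genes were found in RefSeq (build GRCm38.p6), as windows from 250 bases before to 50 bases after each annotated start. The gene pair for the mitochondrial trifunctional protein, Hadha (alpha subunit) and Hadhb (beta subunit), is shown because both genes are read outward from 1 short region of chromosome 5 and their values are compared below. Hadhb starts at position 30155253 on the plus strand and Hadha at position 30154980 on the minus strand, 273 bases apart. The Hadhb window, chr5:30155003-30155302 on the plus strand, is printed 5′ to 3′, with the 228 bases it shares with the Hadha window in capitals.
Hadhb: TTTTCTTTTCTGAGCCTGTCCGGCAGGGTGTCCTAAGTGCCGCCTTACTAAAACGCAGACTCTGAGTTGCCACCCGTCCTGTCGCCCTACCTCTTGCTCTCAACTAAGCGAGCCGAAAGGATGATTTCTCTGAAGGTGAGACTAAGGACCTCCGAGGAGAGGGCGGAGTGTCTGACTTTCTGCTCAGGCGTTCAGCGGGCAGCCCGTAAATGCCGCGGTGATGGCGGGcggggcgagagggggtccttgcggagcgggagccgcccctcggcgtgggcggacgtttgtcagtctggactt
The peroxisomal thiolase genes Acaa1a and Acaa1b encode closely related enzymes, and their windows are shown because their count ratio was higher in every saline liver than in every chow liver. The windows are chr9:119341044-119341343 on the plus strand and chr9:119157044-119157343 on the minus strand, 5′ to 3′, with matches of CCAAT on either strand in capitals (4 in each, 1 overlapping pair in Acaa1b). In a global alignment 47.3% of columns were identical, gaps counted as columns. Pairs of windows among Acot1, Acot2, Acot3 and Acot4 gave 41.6% to 46.4% in the same way. No windows of unrelated genes were aligned, so whether 47.3% is more than unrelated windows give was not tested.
Acaa1a: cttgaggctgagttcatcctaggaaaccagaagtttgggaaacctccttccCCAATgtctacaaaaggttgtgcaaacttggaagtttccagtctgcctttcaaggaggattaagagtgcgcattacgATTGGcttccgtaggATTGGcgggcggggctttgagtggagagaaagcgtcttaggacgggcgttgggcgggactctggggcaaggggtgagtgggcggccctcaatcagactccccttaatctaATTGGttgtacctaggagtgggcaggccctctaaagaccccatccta
Acaa1b: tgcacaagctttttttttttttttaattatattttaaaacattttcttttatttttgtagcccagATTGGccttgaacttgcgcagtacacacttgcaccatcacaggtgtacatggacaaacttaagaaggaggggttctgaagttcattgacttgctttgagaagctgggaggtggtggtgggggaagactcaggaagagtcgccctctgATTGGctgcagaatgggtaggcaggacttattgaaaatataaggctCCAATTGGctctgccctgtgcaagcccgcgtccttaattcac
The 33 genes have 38 windows, since some have several starts. CCAAT matched 18 of these 38 windows (17 of 33 genes), against 37.4% of all 32817 windows in the table. The response element of PPAR-alpha is a direct repeat of a short core site with 1 base between. On both strands, the repeat AGGTCANAGGTCA was in none of the members' windows and in 0.0396% of all windows. The looser AGGNCANAGGNCA, which includes the first, was also in none of theirs and in 0.381% of all. The core site AGGTCA alone was in 8 of the 38 windows, of 7 genes (Acadm, Acadvl, Acot3, Acot4, Cpt1a, Creb3l3 and Slc27a2), and in 16.3% of all windows. These letters were sought in 300 bases only, and distant elements were not examined.

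Totals ran from 43995217 to 58089531 counts per library, and values are given as CPM, counts divided by a library size that was scaled by the TMM method of edgeR. The Kupffer gene Clec4f, which bears on the labels of the DT group, read 43.1 to 49.1 CPM in the saline livers and 6.18 to 15.2 in the DT livers. DT liver 2 lay apart from DT livers 1, 3 and 4: its TMM factor was 0.972 against 1.23 to 1.30 in theirs, and its 8 cholangiocyte markers summed to 48.6 CPM against 249 to 439. The saline livers' sums for those markers were 36.7 to 62.2 CPM. For the genes studied here, DT liver 2 was the highest DT liver for 27 of 38, and lay inside the saline range for 17, below it for 19 and above it for 2. Results are therefore also given without it. This choice was made after these values, those of the genes studied here included, had been seen. More calls or larger falls without DT liver 2 follow in part from that choice and are not independent support. Hepatocyte markers (12 genes) summed to 125039 to 142588 CPM on chow, 110359 to 130323 with saline and 83938 to 114042 with DT. In DT against saline 1 of 12 (Apob) was called lower, near the share of all genes (7.62%). In whole liver, fewer cells of a type and less RNA per cell cannot be told apart. The p-values set each difference against the spread between these livers.

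On western diet with alcohol, the PPAR-alpha gene itself rose. Among genes it is known to control, some fell and Vnn1 rose. Against chow, Ppara and Vnn1 were higher and Pdk4, Ehhadh and Acot8 were lower, while 33 of 38 genes did not pass the threshold of adjusted p 0.05 (edgeR's quasi-likelihood test, Benjamini-Hochberg over all genes tested). Over all 17038 genes, 2.45% were called higher, 3.13% lower and 5.58% in either direction. The median log2 fold change of the 38 genes was -0.33, against 0.00 for all genes. An unadjusted p under 0.05 was found for 14 of 38, and for 3565 of all 17038 genes. None of these 5 calls was kept in every refit that left out 1 liver, and no member was called without chow liver 1, chow liver 2 or saline liver 2. Of all genes, 1.62%, 1.75% and 2.53% were called without those livers. With total count or hepatocyte marker scaling the median of all genes moved to 0.13 or 0.21 and the share of higher genes among all calls from 43.9% to 67% or 79.6%, and with the latter only Ppara and Vnn1 were called.

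With DT on the same diet, genes of all 8 role groups fell, and the receptor gene Ppara had the smallest adjusted p of the 38. Against saline, 24 of 38 genes were called lower and 1 (Pdk4) higher, while all genes gave 7.62% lower, 14.3% higher and 21.9% in either direction. The members' median log2 fold change was -0.60, against 0.02 for all genes. Without DT liver 2 the counts were 30 lower and 1 higher. In that refit 2997 of 16938 genes were called lower and 3827 higher, 40.3% in either direction. The number of calls depended on how libraries were scaled: total counts gave 15 lower and scaling on the 12 hepatocyte markers gave 8 lower, namely Ppara, Vnn1, Acsl1, Eci1, Decr1, Abcd3, Acaa1b and Acot4. Of all genes 2.62% and 1.44% were lower under these scalings. Positive log2 differences were found for 4 and 12 of the 38 genes, against 1 in the main fit. These scalings moved the median of all genes to 0.36 and 0.53. They also moved the share of higher genes among all calls from 65.2% to 92.1% and 96.4%. Upper quartile factors moved it to 75.7%, with 18 members and 5.45% of all genes lower. Leaving out saline liver 2 or 4 left 12 or 9 called lower, leaving out saline liver 1 left 13, and leaving out DT liver 3 or 4 left 11 or 10. In the same order, 592, 609, 760, 612 and 655 of all genes tested were called lower, against 1298 with every liver kept.

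Against chow, the DT livers had 29 of 38 genes lower and none higher, and the 9 others did not pass. All genes gave 8.16% lower, 14.8% higher and 23% in either direction. The members' median log2 fold change was -0.89, against -0.02 for all genes. Without DT liver 2 the count was 34 lower. In that refit 3106 of 16938 genes were called lower and 3728 higher, 40.3% in either direction. Scaling on hepatocyte markers left 13 lower and called 2 higher (Acads and Acot2), with the median of all genes at 0.70 and the share of higher genes among all calls moving from 64.5% to 97.9%. Under it 54.5% of all genes were called and 1.16% were called lower. With upper quartile factors and total counts, the share of higher genes among all calls was 77.6% and 94.8%. Members lower then numbered 27 and 22, and 4.89% and 1.99% of all genes were lower. The comparisons share groups (the chow, saline or DT livers), and the log2 difference of DT from chow is the sum of those of the other comparisons. Their values are therefore set side by side below and not as independent results.

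**Figure D1:**
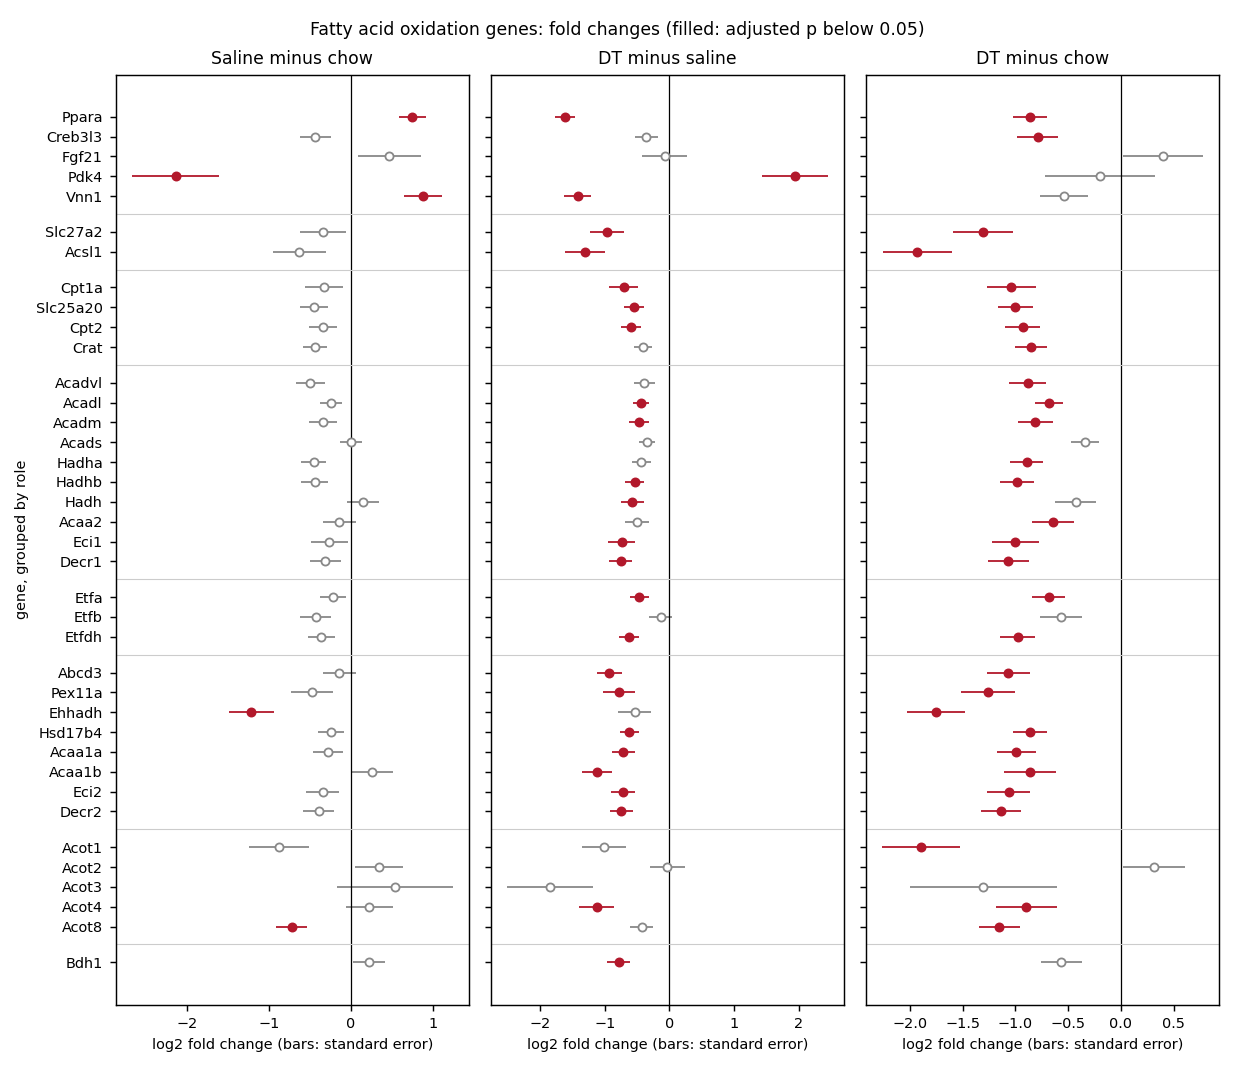
Log2 fold change (x axis) with its standard error for each of the 38 genes (y axis, grouped by role) in the 3 comparisons; filled red points have an adjusted p below 0.05. Saline against chow has 5 filled points, DT against saline has 25, of which Pdk4 alone lies to the right of 0, and DT against chow has 29, all left of 0.

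Among the regulators, Ppara encodes the receptor. Its level was 158, 146 and 159.8 CPM in the chow livers, 246, 263, 235 and 297 in the saline livers and 61.9, 102, 92.9 and 83.1 in the DT livers. No 2 groups overlapped: every saline liver was above every chow liver, and every DT liver, liver 2 included, was below both. Ppara was 1.68-fold higher with saline than on chow (log2 0.75, SE 0.16, adjusted p = 0.0224). With DT it was 3.06-fold lower than with saline (log2 -1.61, SE 0.15, adjusted p = 0.000871) and 1.82-fold lower than on chow (adjusted p = 0.00568). The difference from saline stayed past the threshold in every refit and setting tried, at log2 -1.12 (adjusted p = 0.00683) with hepatocyte marker scaling. The difference from chow did not pass under that scaling (log2 -0.16, adjusted p = 0.482). The rise on the diet did not pass with any 1 of chow livers 1, 2 or 3, or of saline livers 2 or 4, left out.

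Vnn1 encodes vanin-1, a pantetheinase and a known target of PPAR-alpha in liver. It read 68.0, 63.7 and 65.2 CPM on chow, 86.4, 135, 122 and 139 with saline and 41.6, 62.6, 28.9 and 47.4 with DT. Saline livers lay above all others, and the DT livers fell below all chow livers. Vnn1 rose 1.84-fold on the diet (log2 0.88, SE 0.23, adjusted p = 0.0492), which was lost with any 1 of 7 livers left out, each chow liver among them. It fell 2.68-fold with DT (log2 -1.42, SE 0.21, adjusted p = 0.00442), in every refit and setting tried. DT against chow did not pass (log2 -0.54, adjusted p = 0.105), but did without DT liver 2 (log2 -0.74, adjusted p = 0.0117).

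Pdk4, the kinase that shuts off pyruvate dehydrogenase when fat is burned, ran the other way and at low levels. The chow livers read 36.7, 18.5 and 9.25 CPM, the saline livers 6.76, 6.35, 3.07 and 3.22 and the DT livers 18.4, 5.89, 20.9 and 29.5. Chow livers lay above all saline livers and were widely spread; DT livers 1, 3 and 4 were above all saline livers and DT liver 2 was inside their range. Pdk4 was 4.43-fold lower with saline than on chow (log2 -2.15, SE 0.54, adjusted p = 0.0396) and 3.86-fold higher with DT than with saline (log2 1.95, SE 0.51, adjusted p = 0.021). The first call was lost in 9 of 11 refits that left out 1 liver. The second was lost without saline liver 3, saline liver 4, DT liver 3 or DT liver 4. DT and chow did not differ past the threshold, with a 95% interval of the log2 difference from -1.41 to 1.01.

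Creb3l3 encodes a liver transcription factor of fasting that works with PPAR-alpha. Its values were 452, 484 and 489.8 CPM on chow, 355, 296, 307 and 447 with saline and 236, 359, 285 and 219 with DT. All saline and DT livers were below all chow livers, and saline and DT overlapped. Only DT against chow passed (log2 -0.79, SE 0.19, adjusted p = 0.015), and DT against saline did so only without DT liver 2 among the refits (log2 -0.51, adjusted p = 0.0211). Fgf21, a fasting hormone gene induced by PPAR-alpha, was scarce: 7.06, 5.77 and 6.78 CPM on chow, 10.5, 4.21, 12.5 and 9.03 with saline and 9.96, 3.75, 10.5 and 10.3 with DT. It passed in no comparison, and its log2 differences were 0.47, -0.07 and 0.40 in the order saline against chow, DT against saline and DT against chow. DT liver 2 was the lowest of all 11 livers, while the other DT livers were above every chow liver.

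**Figure D2:**
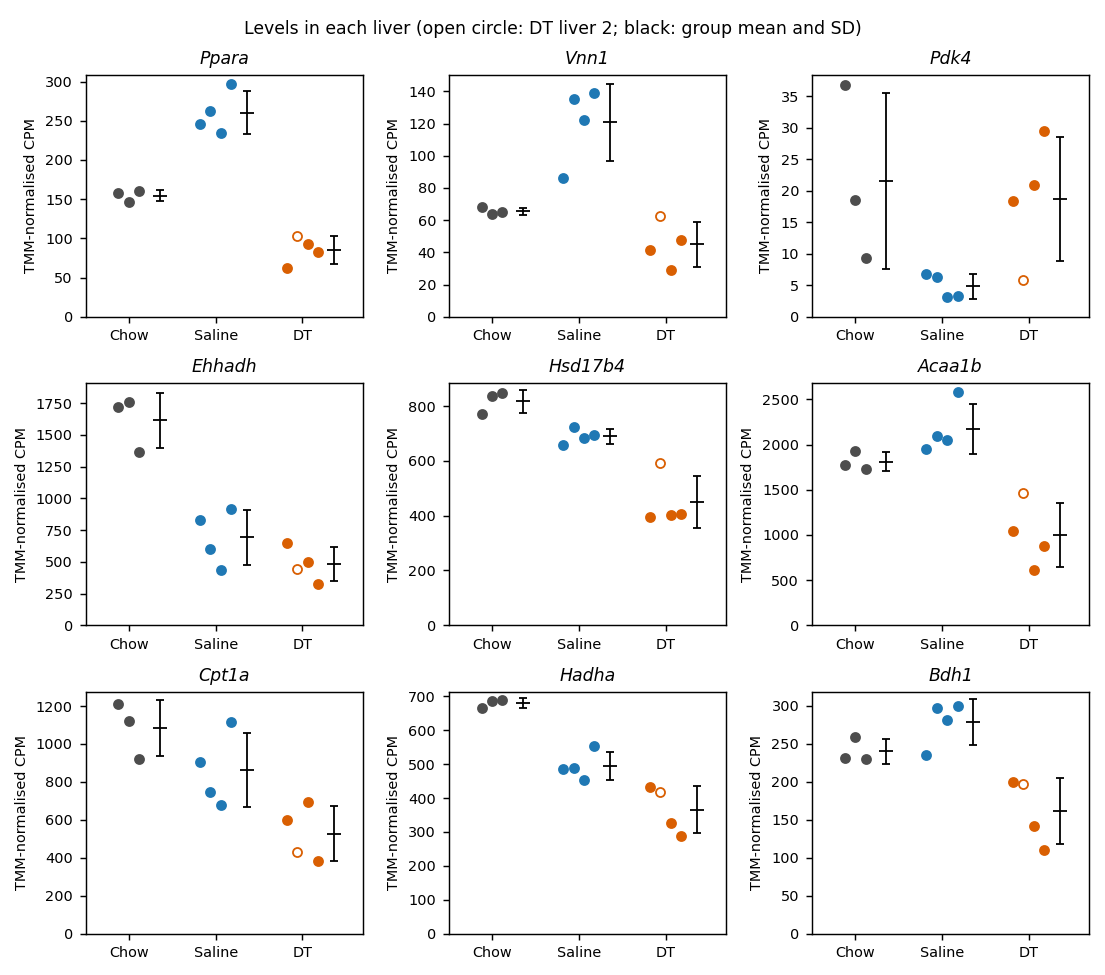
TMM-normalised CPM (y axis, from 0) of 9 genes in each liver, by group, with the group mean and SD in black and DT liver 2 as an open circle. Ppara and Vnn1 were highest with saline, Pdk4 was lowest there, and Ehhadh was high on chow only, while Hsd17b4 and Hadha stepped down from chow through saline to DT.

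Both genes of fatty acid uptake and activation fell with DT. Acsl1, which joins long-chain fatty acids to coenzyme A, read 3284, 3225 and 2600.1 CPM on chow, 1811, 1918, 1291 and 2825 with saline and 676, 1340.5, 532 and 638 with DT. DT livers 1, 3 and 4 were below every saline liver, and DT liver 2 was just inside their range. The fall with DT was 2.46-fold (log2 -1.30, SE 0.31, adjusted p = 0.015) and passed in every refit and setting tried. Against chow it was 3.81-fold (log2 -1.93, SE 0.33, adjusted p = 0.00443), the most negative log2 difference of the 38 genes in that comparison. Saline against chow did not pass (log2 -0.63, adjusted p = 0.301).

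Slc27a2, a fatty acid transporter and very long-chain acyl-CoA synthetase, read 2996, 2914 and 3004 CPM on chow, 2662, 2029, 1732 and 2977 with saline and 849, 1798, 1352 and 807 with DT. DT liver 2 reached into the saline range, and all DT livers were below all chow livers. Slc27a2 fell 1.96-fold with DT against saline (log2 -0.97, SE 0.27, adjusted p = 0.0256), a call that was lost with hepatocyte marker scaling (log2 -0.53, adjusted p = 0.0741) and without saline liver 1, 2 or 4 or DT liver 1 or 4. Per kilobase of exon (GENCODE M21), Slc27a2 ranked second of the 38 genes on chow at 792 CPM per kb, and Acsl1 ranked 5 of 38 on chow and 11 of 38 with DT.

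In the carnitine shuttle, none of the 4 genes passed on the diet, 3 fell with DT against saline and all 4 were lower with DT than on chow. Cpt1a, the outer-membrane carnitine palmitoyltransferase that sets the pace of entry into mitochondria, read 1211, 1122 and 920.1 CPM on chow, 904, 748, 679 and 1117 with saline and 602, 432, 694 and 386 with DT. Saline overlapped both other groups, and all DT livers were below all chow livers. The DT livers were 1.63-fold lower than saline (log2 -0.71, SE 0.22, adjusted p = 0.0403) and 2.05-fold lower than chow (log2 -1.04, adjusted p = 0.0111). The first of these was lost in 6 of 12 other settings and with chow liver 1 or 2, saline liver 1, 2 or 4, or DT liver 4 left out.

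Cpt2, its partner on the inner membrane, read 227, 250.2 and 245 CPM on chow, 197, 179, 158 and 225 with saline and 149.6, 146, 108 and 102 with DT, with no overlap between any 2 groups. It fell with DT against saline (log2 -0.59, SE 0.16, adjusted p = 0.0218). Slc25a20, the carrier that swaps acylcarnitine for carnitine between them, read 200.3, 211 and 213 CPM on chow, 148, 156, 134 and 170.2 with saline and 104, 140.4, 86.6 and 84.8 with DT. All chow livers were highest and only DT liver 2 reached the saline range. Slc25a20 fell 1.46-fold with DT against saline (log2 -0.55, adjusted p = 0.0302). Crat, which moves short acyl groups onto carnitine, read 161, 159 and 149.9 CPM on chow, 119, 110.2, 89.1 and 143 with saline and 100.1, 79.8, 84.1 and 83.5 with DT. Its DT liver 2 was the lowest DT liver, and DT against saline did not pass (log2 -0.41, adjusted p = 0.055), while DT against chow did (log2 -0.85, adjusted p = 0.00506). With hepatocyte marker scaling none of the 4 passed in DT against saline.

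Of the 10 genes of the mitochondrial beta-oxidation spiral, none passed on the diet, 6 fell with DT against saline and 8 were lower with DT than on chow. Hadha read 664, 685 and 690.3 CPM on chow, 486, 489, 453 and 552 with saline and 433, 417, 325 and 289 with DT. Hadhb read 208, 234 and 234 CPM on chow, 164, 154, 143 and 202 with saline and 131, 129, 108 and 88.4 with DT. For both subunits of the trifunctional protein all chow livers were above all saline livers, and those above all DT livers. The log2 differences of DT from saline were -0.43 for Hadha (adjusted p = 0.0539, not called) and -0.54 for Hadhb (adjusted p = 0.0272), and those from chow were -0.89 and -0.98 (adjusted p = 0.00507 and 0.00403). The ratio of Hadha to Hadhb counts within a liver, which needs no scaling, was 3.02 ± 0.15 on chow, 3.01 ± 0.21 with saline and 3.21 ± 0.13 with DT, for this pair that shares the printed promoter region (the size of the ratio also reflects gene length). The groups' ranges overlapped, with 3 of 4 DT livers (3.22 to 3.31) above every chow and saline liver (2.74 to 3.19) and DT liver 3 at 3.02.

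Decr1, the reductase for unsaturated chains, read 260.4, 281 and 273 CPM on chow, 212, 219, 194 and 250.5 with saline and 128, 185, 106 and 99.5 with DT. The groups did not overlap in either step, and the DT livers were 1.69-fold lower than saline (log2 -0.76, SE 0.18, adjusted p = 0.0157). With hepatocyte marker scaling only Decr1 and Eci1 (enoyl-CoA isomerase) of these 10 genes were still called in DT against saline, at log2 -0.32 and -0.32 (adjusted p = 0.0314 and 0.0492). Among the acyl-CoA dehydrogenases, Acadvl (very long chains) was not called in DT against saline (log2 -0.39), Acadl (long) and Acadm (medium) were (log2 -0.44 and -0.47, adjusted p = 0.0297 and 0.0494), and Acads (short) was not (log2 -0.34); differences between these genes were not tested. For Acadvl, 42.9% of exon bases overlap Dvl2 on the opposite strand, and without a stated strand setting their reads cannot be told apart. Hadh, the short-chain hydroxyacyl-CoA dehydrogenase, was called lower with DT against saline (log2 -0.57, adjusted p = 0.0407), in 1 of 11 refits without 1 liver and in 7 of 12 other settings, and read log2 -0.43 against chow (adjusted p = 0.125). Without DT liver 2 Hadh passed in both comparisons (adjusted p = 0.00105 and 0.00471). Acaa2, the mitochondrial thiolase, was called lower against chow (log2 -0.65, adjusted p = 0.0386), also in 1 of 11 refits and 7 of 12 settings, and read log2 -0.51 against saline (adjusted p = 0.0721). Without DT liver 2 Acaa2 passed against saline too (log2 -0.70, adjusted p = 0.00218). The call of Acadm against saline held in 2 of 11 refits and 5 of 12 settings, and that of Acadl in 5 and 7. For Acadl and Acadm the sign of DT against saline turned under hepatocyte marker scaling, to log2 0.05 and 0.00586, neither called. It turned as well for Acadvl, Acads and Hadha, not called in the main fit, to log2 0.06, 0.13 and 0.04, none called. For DT against chow the sign turned for Acadl and Acaa2, to 0.0121 and 0.00566. It also turned there for Hadh (0.226, not called) and Acads (0.346, called higher).

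Electrons from these dehydrogenases pass through the flavoprotein of Etfa and Etfb to the reductase Etfdh. Etfdh read 459, 479 and 470.1 CPM on chow, 359.7, 381, 322 and 399.8 with saline and 213, 319.9, 213 and 208 with DT. Etfa read 274, 289 and 293 CPM on chow, 239, 258, 243 and 239 with saline and 162, 238, 152 and 157 with DT. In both, the groups stepped down without overlap, but DT liver 2 came within a short distance of the lowest saline liver while the other 3 DT livers lay close together below. Etfdh fell 1.53-fold (log2 -0.62, adjusted p = 0.0178) and Etfa 1.38-fold (log2 -0.47, adjusted p = 0.0405) with DT against saline. The call of Etfa held in 1 of 11 refits without 1 liver and 7 of 12 other settings, and that of Etfdh in 7 and 11. Etfb, at 8.97 to 21.3 CPM over all livers, was called in no comparison; 53% of its exon bases overlap another annotated gene on the same strand, so its counts are uncertain.

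**Figure D3:**
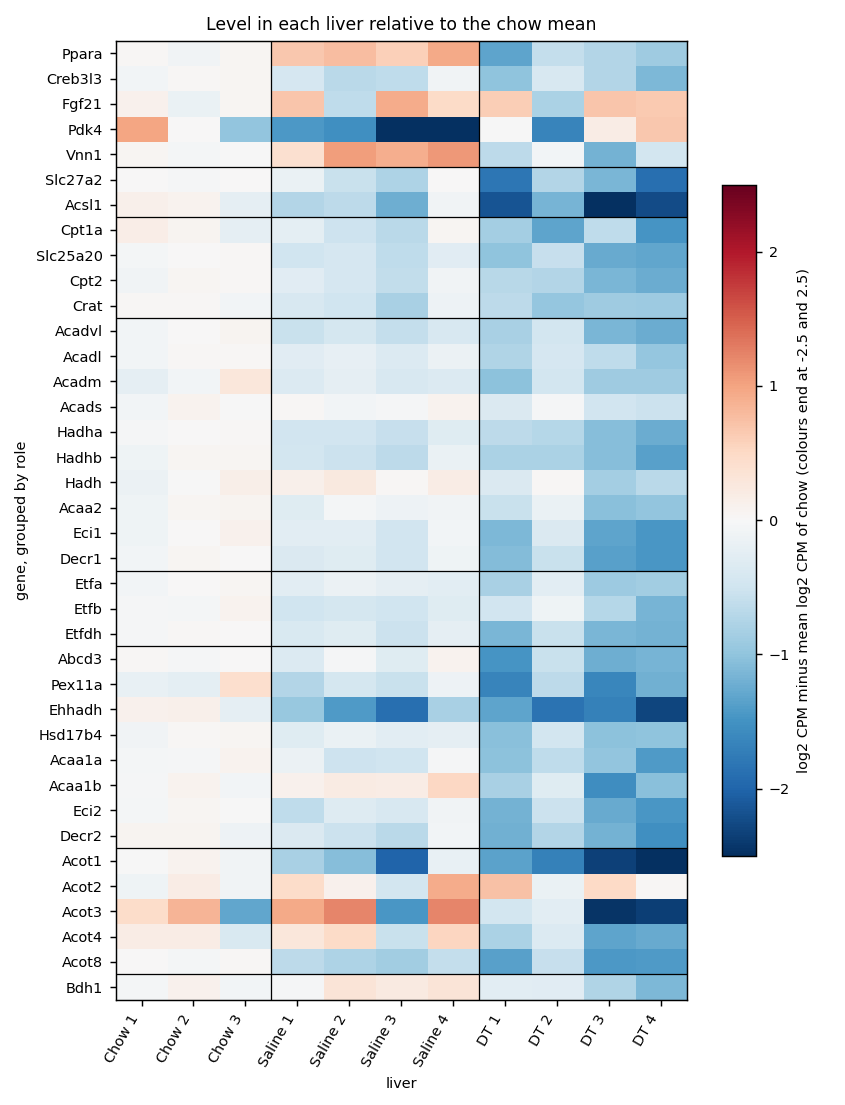
Log2 CPM of each of the 38 genes (rows, grouped by role) in each of the 11 livers (columns), minus the mean of the chow livers; red is higher, blue lower. Ppara and Vnn1 are red in all 4 saline livers and blue or near 0 in the DT livers, and most enzyme rows darken from saline to DT, least in DT liver 2.

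Of the peroxisomal genes, 7 of 8 fell with DT against saline and 8 of 8 against chow; with hepatocyte marker scaling these were 2 (Abcd3 and Acaa1b) and 5. The 8th, Ehhadh, had fallen on the diet already. Ehhadh encodes the bifunctional enzyme for straight chains, a classical PPAR-alpha target, and read 1722, 1761 and 1367 CPM on chow, 829, 601, 437 and 914 with saline and 648, 445, 500.0 and 329 with DT. Chow livers were far above both other groups, which overlapped. It fell 2.32-fold on the diet (log2 -1.22, SE 0.27, adjusted p = 0.0245), which did not pass without chow liver 1 or 2, or saline liver 2 or 3, nor with hepatocyte marker scaling (log2 -1.0, adjusted p = 0.0878). With DT it was 3.37-fold below chow (log2 -1.75, SE 0.27, adjusted p = 0.00353), and its difference from saline had a 95% interval from -1.12 to 0.05 (adjusted p = 0.146).

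Hsd17b4, the other bifunctional enzyme, which handles branched chains and bile acid precursors, followed a different course. It read 770.5, 836 and 847 CPM on chow, 659, 724, 682 and 695 with saline and 395, 593, 403 and 408 with DT. The 3 groups stepped down without overlap, with log2 differences of -0.24 on the diet (adjusted p = 0.422, not called) and -0.62 with DT against saline (SE 0.15, adjusted p = 0.0157). The count ratio of Ehhadh to Hsd17b4 within a liver, which does not depend on scaling, was 1.61 to 2.24 on chow, 0.641 to 1.31 with saline and 0.750 to 1.64 with DT. All saline livers were below all chow livers in this ratio, and the DT livers overlapped both groups.

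The thiolases Acaa1a and Acaa1b, whose promoters are printed above, are described as a pair. Acaa1b, given in full because it was the highest of the 38 genes per kilobase in all 3 groups (a choice made after the values were seen), read 1771, 1928 and 1733 CPM on chow, 1957, 2098, 2055 and 2583 with saline and 1038, 1464, 615 and 874 with DT. Acaa1a read 312, 315 and 343 CPM on chow, 292, 224, 229 and 317 with saline and 159.6, 207, 162 and 120.4 with DT. All saline livers were above all chow livers for Acaa1b, whereas for Acaa1a they overlapped, and neither gene passed on the diet (log2 0.26 and -0.28). Both fell with DT against saline, Acaa1b 2.18-fold (log2 -1.12, adjusted p = 0.00945) and Acaa1a 1.64-fold (log2 -0.71, adjusted p = 0.0163). Their count ratio was 5.06 to 6.11 on chow, 6.70 to 9.35 with saline and 3.79 to 7.26 with DT, so every saline liver exceeded every chow liver. The genes are near copies in sequence, and how the counting split shared reads is not given in the sources used here.

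Abcd3, the transporter of long-chain acyl-CoA into peroxisomes, read 645, 617 and 635 CPM on chow, 496, 617, 509.9 and 670.5 with saline and 227, 428, 271 and 281 with DT. All DT livers were below all saline livers, and the fall was 1.90-fold (log2 -0.93, SE 0.19, adjusted p = 0.00945), still called with hepatocyte marker scaling (log2 -0.47, adjusted p = 0.0235). Decr2, the peroxisomal dienoyl-CoA reductase, read 333, 334 and 294 CPM on chow, 249.9, 222, 199 and 305 with saline and 139, 191, 142 and 111 with DT, and fell 1.67-fold with DT against saline (log2 -0.74, adjusted p = 0.0155). Its DT livers lay below every saline liver, and saline liver 4 reached the chow range. Eci2 (peroxisomal enoyl-CoA isomerase) and Pex11a (peroxisome division) fell 1.64-fold and 1.72-fold with DT against saline (adjusted p = 0.0217 and 0.0394). These calls held in 7 of 11 refits without 1 liver for Eci2 and in 2 of 11 for Pex11a.

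Mitochondrial and peroxisomal genes were compared within each liver as mean log2 CPM relative to chow, over 17 mitochondrial genes (shuttle, beta-oxidation and electron transfer) and the 8 peroxisomal ones. The mitochondrial mean was -0.31 ± 0.12 (SD, n = 4) with saline and -0.84 ± 0.27 (n = 4) with DT, and the peroxisomal mean was -0.37 ± 0.19 and -1.16 ± 0.30. The difference between the 2 means, in which library scaling cancels but for the prior count, was -0.04 to 0.02 in chow livers, -0.06 to 0.10 in saline livers and 0.22 to 0.44 in DT livers. All 4 DT livers, liver 2 included (0.22), were above all 7 other livers: in them the 8 peroxisomal genes were lower than the 17 mitochondrial genes relative to chow. Wider lists did not show this gap: in DT livers 1 to 4 the mean was -0.33, -0.19, -0.54 and -0.51 over 20 further mitochondrial fatty acid oxidation genes and -0.36, -0.16, -0.51 and -0.58 over 32 further peroxisomal genes. The gap was thus seen in these 25 genes, and whether it holds for the organelles as a whole was not tested.

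The 12 hepatocyte markers, measured the same way, averaged -0.21 ± 0.05 with saline and -0.69 ± 0.36 with DT, where DT liver 2 stood at -0.18 and the other 3 at -0.70 to -0.95. Relative to these markers in the same liver, the mitochondrial mean was -0.23 to 0.06 with saline and -0.31 to -0.02 with DT, so the groups overlapped. The peroxisomal mean was -0.33 to 0.12 with saline and -0.54 to -0.36 with DT, and every DT liver was below every saline liver. The setting against hepatocyte markers was chosen after values had been seen, and no test was made. Cholangiocyte markers (8 of 8 called higher with DT against saline, though some, Krt7 and Cldn4 among them, were at 0 in some livers) and stellate and fibroblast markers (7 of 8 higher, sums 142 to 283 CPM with saline and 236 to 677 with DT) moved with these falls. Kupffer cell markers fell in 7 of 8 (sums 451 to 539.7 CPM with saline and 220.2 to 344 with DT), and endothelial markers fell in 3 of 7. Of the leukocyte markers 1 of 8 was called higher (sums 17.3 to 31.0 CPM with saline and 18.8 to 70.5 with DT). All genes gave 7.62% lower and 14.3% higher in this comparison, so the leukocyte count was near the share of all genes. The part of these cell types in the results was not tested.

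**Figure D4:**
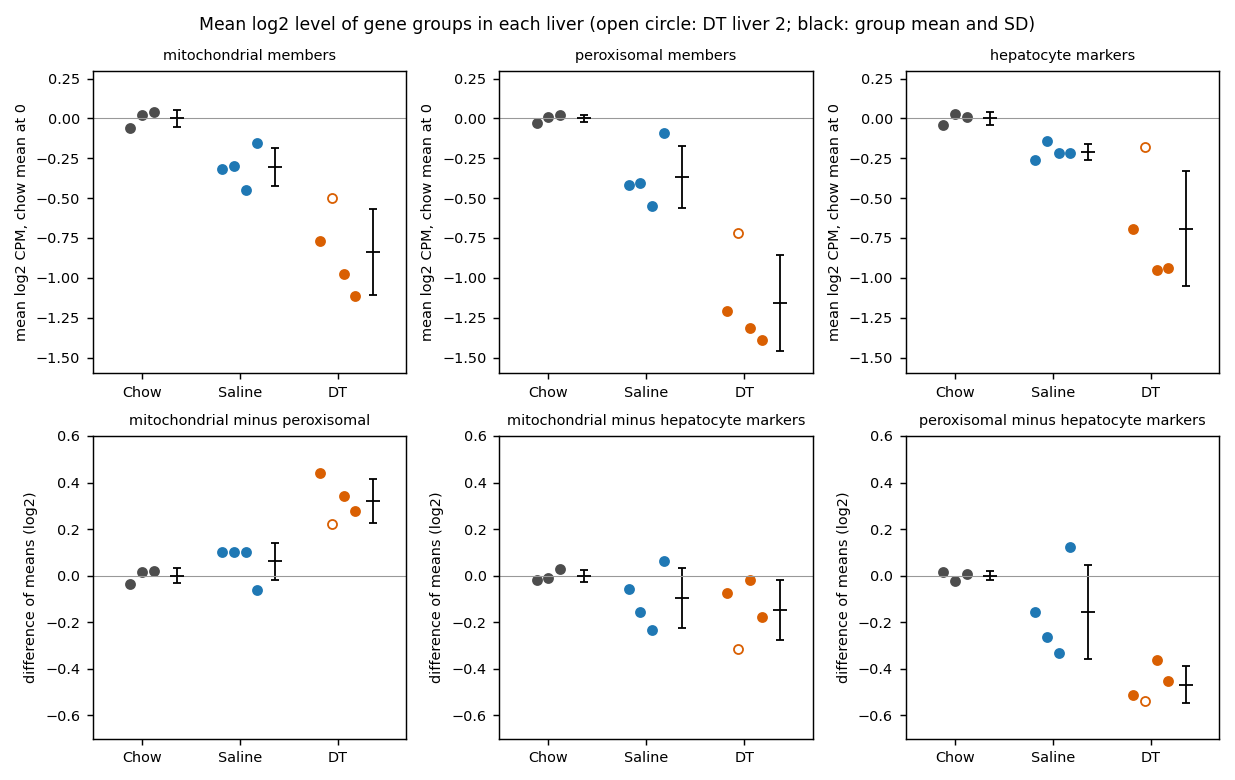
Mean log2 CPM relative to chow of 17 mitochondrial genes, 8 peroxisomal genes and 12 hepatocyte markers in each liver (top), and the differences between these means (bottom), with group mean and SD in black and DT liver 2 open. In the lower left panel the DT livers (0.22 to 0.44) lie above all others, and in the lower right panel (-0.54 to -0.36) they lie below all others.

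Acyl-CoA thioesterases release free fatty acids from coenzyme A, and their genes did not move together. Acot8, the peroxisomal member, read 27.7, 26.8 and 28.3 CPM on chow, 17.6, 16.2, 15.0 and 18.1 with saline and 10.7, 18.5, 10.2 and 10.4 with DT. All chow livers were highest, DT liver 2 was just above every saline liver, and the other DT livers were below them all. It fell 1.65-fold on the diet (log2 -0.72, adjusted p = 0.0492, lost in 9 of 11 refits that left out 1 liver) and was 2.22-fold below chow with DT (log2 -1.15, adjusted p = 0.00411). DT against saline passed only without DT liver 2 among the refits (log2 -0.43, adjusted p = 0.102 with it; log2 -0.68, adjusted p = 0.000304 without it).

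Acot1, a cytosolic thioesterase induced by PPAR-alpha, read 128, 137 and 122 CPM on chow, 72.9, 61.1, 32.2 and 113 with saline and 51.2, 39.8, 25.5 and 22.0 with DT, and passed only in DT against chow (log2 -1.90, SE 0.37, adjusted p = 0.00658). Acot4, a peroxisomal relative, read 136, 137 and 92.4 CPM on chow, 145, 167, 81.9 and 175 with saline and 69.0, 94.4, 48.3 and 50.2 with DT. Acot4 fell 2.17-fold with DT against saline (log2 -1.12, SE 0.27, adjusted p = 0.0159), with DT liver 2 inside the saline range. The ratio of Acot1 to Acot4 counts was 0.941 to 1.32 on chow, 0.366 to 0.647 with saline and 0.422 to 0.742 with DT: every chow liver exceeded every liver of the diet groups. Acot2 (mitochondrial) and Acot3 (peroxisomal) passed in no comparison, and Acot3 varied from 7.31 to 93.6 CPM over all livers. Chow liver 3 and saline liver 3 were both far below their groups for Acot3. Acot1 to Acot4 are close relatives, and shared reads make their split uncertain.

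**Figure D5:**
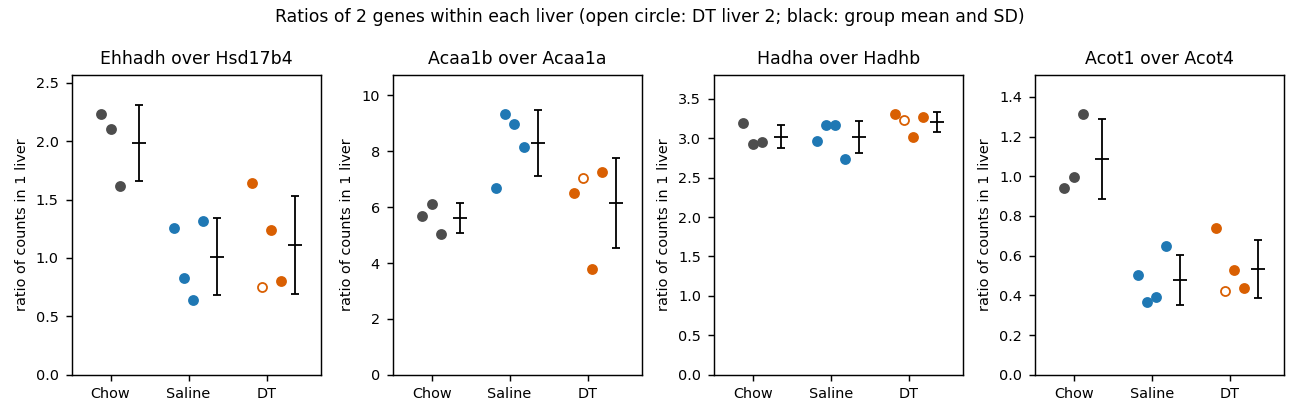
Ratios of the counts of 2 genes within each liver (y axis, from 0), by group, with group mean and SD in black and DT liver 2 open. Ehhadh over Hsd17b4 and Acot1 over Acot4 are lower in all saline livers than in all chow livers, Acaa1b over Acaa1a is higher, and Hadha over Hadhb has group means of 3.02, 3.01 and 3.21 in the order chow, saline, DT.

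The ketone gene of the set, Bdh1, encodes the mitochondrial enzyme that interconverts acetoacetate and hydroxybutyrate. It read 231, 259 and 229 CPM on chow, 235, 297, 282 and 300.0 with saline and 199, 196, 142 and 109.8 with DT. All DT livers were below all other livers, while saline and chow overlapped. It fell 1.72-fold with DT against saline (log2 -0.78, SE 0.18, adjusted p = 0.014), and DT against chow did not pass (log2 -0.57, adjusted p = 0.0547). With hepatocyte marker scaling the call against saline was lost (log2 -0.32, adjusted p = 0.0858), and DT against chow read log2 0.10 (adjusted p = 0.57).

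By the order of livers alone, 8 genes (Cpt2, Acadl, Hadha, Hadhb, Decr1, Etfa, Etfdh and Hsd17b4) stepped down from chow to saline to DT with no overlap at either step, a pattern shown by 88 of 17038 genes (0.516%). Ppara, Vnn1 and Acaa1b had every saline liver above every chow and every DT liver, as did 726 genes (4.26%). Without regard to the third group, every DT liver was below every saline liver for 16 members (9.97% of all genes) and for 29 once DT liver 2 was left out (21% of all genes). Every DT liver was below every chow liver for 31 members (14.4% of all genes), and every saline liver was below every chow liver for 18 (15.6%). These counts depend on TMM scaling and carry no test.

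Genes around this set were taken from lists by function. For the counts below, 3.13% of all genes were called lower and 2.45% higher on the diet. With DT against saline these shares were 7.62% and 14.3%, and with DT against chow 8.16% and 14.8%. Of 14 partners and cofactors of PPAR-alpha, none was called on the diet; with DT against saline Rxra, its obligate partner, Ncoa2 (a coactivator) and Ncor1 (a corepressor) fell (log2 -0.58, -0.48 and -0.66; adjusted p = 0.0218, 0.0107 and 0.0125) and Ppard, the related receptor, rose (log2 0.84, adjusted p = 0.0114). Against chow Hnf4a was lower with DT (log2 -0.62, adjusted p = 0.036). Every saline liver was also below every chow liver for Hnf4a (log2 -0.66, adjusted p = 0.0654, not called). The saline livers (673 to 858 CPM) and DT livers (600 to 1003 CPM) overlapped. Of 20 further targets of PPAR-alpha, 5 fell and 1 rose on the diet. The lowest p-values there belonged to Cyp4a14, an omega-hydroxylase of fatty acids (log2 -3.28, adjusted p = 0.0038), Plin5, a lipid droplet protein (log2 -1.45, adjusted p = 0.00628), and Aldh3a2, a fatty aldehyde dehydrogenase, which rose (log2 0.96, adjusted p = 0.0131). With DT against saline 9 of the 20 fell, among them Aldh3a2 (log2 -1.14, adjusted p = 0.00433), and 2 rose, Plin5 (log2 0.76) and Ucp2 (log2 0.79). Against chow 10 fell, including the carnitine transporter Slc22a5 (log2 -1.44, adjusted p = 0.00173) and Retsat (log2 -2.38, adjusted p = 0.00253), and 1 rose, Aqp7, which was at 0 in all chow livers. Aldh3a2 read 825 to 966 CPM with saline, above the chow livers (438 to 516) and the DT livers (334 to 557).

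Of 20 further mitochondrial genes of fatty acid oxidation, 1 rose on the diet (Acot13, log2 0.45, adjusted p = 0.021), and with DT against saline 9 fell and 1 rose; Mmut, methylmalonyl-CoA mutase, was lowest in p (log2 -0.67, adjusted p = 0.009). Against chow 8 of these fell and 1 rose; Acss1, a mitochondrial acetyl-CoA synthetase, was the 1 that rose both times. Of 32 further peroxisomal genes, Hacl1 fell on the diet (log2 -1.30, adjusted p = 0.0167). With DT against saline 9 of the 32 fell and none rose; Crot, the peroxisomal carnitine octanoyltransferase, read 298 to 412 CPM with DT and 691 to 868 with saline (log2 -1.10, adjusted p = 0.00483). Against chow 11 fell and 2 rose, Acot6 among them. Of 8 genes of ketone synthesis and export, the monocarboxylate transporter Slc16a1 fell on the diet (log2 -0.86, adjusted p = 0.0242), and with DT against saline Slc16a7 fell (log2 -0.80) while Slc16a6 rose (log2 0.85). Against chow 3 of these fell and 1, Slc16a6, rose. The calls of these lists were made with TMM scaling only. Some counts were near the shares of all genes. Among them were 1 of 32 further peroxisomal genes lower on the diet and 1 of 14 partners lower with DT against chow.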

How the data were processed

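Per the labels, poly(A) RNA of whole liver was sequenced; an extraction text on CD45-positive cells was read as belonging to single-cell work, since the sample labels name whole liver. Per the submitters' processing notes, FastQC, STAR, GRCm39 and featureCounts were used; versions, gene annotation, strand and mate handling are not given in the sources used here. The authors deposited raw counts per gene, 1 column per library. Low counts were mostly even in every library (74.7 to 80.7% of counts under 50 were even numbers), so halved counts were tried.

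Genes were filtered with filterByExpr, scaled by TMM and tested with edgeR 4.0.16 (limma 3.58.1, R 4.3.3): quasi-likelihood, robust, 1 mean per group over the 3 groups, 8 residual degrees of freedom, two-sided, Benjamini-Hochberg at 0.05 over 17038 genes within each comparison. SE is the size of the log2 fold change over the root of F. Scores used log2 CPM with a prior count of 2. A count of 3 corresponds to 0.0398 to 0.0773 CPM, counting error only. Scripts were tested on simulated data. Alternatives covered scaling, DESeq2 1.42.0, limma-voom, filters, samples fitted, replicate block and leaving out each liver.

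Members and lists were chosen with earlier results of these data known. By rule, Ppara, Cpt1a, Ehhadh, Hsd17b4, Bdh1, Fgf21, Pdk4 and up to 3 called genes of smallest p per role are given by liver; other lists by counts with up to 3 examples of small p. Exon lengths and overlaps came from GENCODE M21 (GRCm38), a build other than that of the counts. Results of some genes in these lists are not reported here.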

Additional observations from a re-analysis of the deposited data

Results flagged for a closer look

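In 5 of the 76 groups of 4 livers examined (38 genes in the saline and the DT group), 1 liver lay far from the other 3 for the range of its group; chance alone gives about 1 such group in 20. All 5 were DT liver 2. It was lowest for Fgf21, at 3.75 CPM against 9.96 to 10.5 in the other DT livers. It was highest for Etfa (238 CPM against 152 to 162), Etfdh (319.9 CPM against 208 to 213), Hsd17b4 (593 CPM against 395 to 408) and Acot8 (18.5 CPM against 10.2 to 10.7). In the same liver the cholangiocyte markers summed to 48.6 CPM and the mean log2 level of the hepatocyte markers was -0.18 relative to chow, against -0.95 to -0.70 in the other DT livers. Whether these values account for its levels of the oxidation genes was not tested.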

How the results depend on the processing

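The number of the 38 genes called was 5 for saline against chow, 25 for DT against saline and 29 for DT against chow. For saline against chow it became 2 with hepatocyte marker scaling, 3 with limma-voom, 11 with a fit on the compared groups only and 14 without both DT livers 1 and 2. Of all genes 3.35%, 4.18%, 20.1% and 18.9% were then called, against 5.58% in the main fit. With 1 liver left out the members called ranged from 0 to 8, and the share of all genes from 1.62% to 11.4%. For DT against saline the number of members became 16 with total count scaling, 9 with hepatocyte marker scaling and 16 with the compared groups only. Of all genes 33%, 40.1% and 14.5% were then called, against 21.9% in the main fit. With 1 liver left out the members called ranged from 9 to 31, and the share of all genes from 10.5% to 40.3%. For DT against chow the number of members became 15 with hepatocyte marker scaling, where 54.5% of all genes were called, against 23% in the main fit. With the replicate number as a block the 3 counts were 0, 20 and 28 (3.28%, 16.7% and 13% of all genes). The labels give the numbers no shared origin, and livers with equal numbers did not deviate together throughout (correlations from -0.16 to 0.18). Hepatocyte marker scaling turned the sign of Acadl (0.0467) and Acadm (0.00586) in DT against saline, and of Acadl (0.0121), Acaa2 (0.00566) and Acads (0.346, called higher) in DT against chow; sign changes of genes called in neither setting were not counted. The causes of these shifts were not tested. Of the called genes, 0 of 5, 7 of 25 and 25 of 29 were called in every refit without 1 liver, and 0, 7 and 13 in every other setting. Members with every DT liver below every saline liver numbered 16, and 29 without DT liver 2, a choice made after seeing the data. All 38 genes were far above the 3-count limit, and precision is limited by the number of livers, 3 or 4 a group.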
